A study of Mus musculus with 6 samples.

Results

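The expression of 57 genes that act in the G2 phase and in mitosis was measured in sorted cells of the mouse medial ganglionic eminence (MGE) with and without a floxed Magoh allele. The genes were chosen by symbol (mitotic kinases, cyclins, kinesins, kinetochore and cytokinesis genes, with microcephaly genes left out). That choice was made with earlier results of these data known. All 57 symbols were found among the 38561 genes of the raw count table, 1 row each, and all 57 were among the 16495 genes tested. RNA was sequenced from 6 libraries of tdTomato-positive cells of the telencephalon, sorted at E11.5 (mid-gestation). The 4 control libraries carried Nkx2.1-Cre and ROSAloxSTOPloxTdTomato, and the 2 heterozygous libraries carried Magoh lox/+ beside both, all on C57BL/6. Nkx2.1-Cre acts in the Nkx2-1 lineage, so an allele is lost only in cells that have expressed the Cre, and the controls share the Cre and the reporter.

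Cells that approach division build up cyclin A and cyclin B, which activate the kinase Cdk1 and start mitosis. Chromosomes then condense, kinesin motors and microtubule-binding proteins build the spindle, and kinetochores attach chromosomes to it under a checkpoint. The anaphase-promoting complex ends mitosis by degrading cyclins and securin, and an actomyosin ring divides the cell. Messenger RNAs of this program are made mainly in G2 and M, so in a bulk sample their level depends on the share of dividing cells. Progenitors of the MGE divide at the ventricle and in the subventricular zone before they give rise to interneurons. In bulk RNA, fewer dividing cells and less RNA of these genes per cell cannot be told apart.

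Transcription of the program is switched by protein complexes with the MuvB core. They bind a promoter element called the CHR, and CCAAT boxes next to it are bound by NF-Y. RefSeq promoter windows (GRCm38.p6, 250 bases before to 50 after the start site, 1 window for each gene) matched 48 of the 57 genes. Aurkb, Cdca2, Ccna2, Cdc25c, Kif20a, Tpx2, Dlgap5, Fam64a and Smc4 had no window. A CHR match (TTTGAA or TTCGAA, on either strand) was present in 38 of 48 windows (79.2%), against 19.4% of 27018 gene promoters of the same length. CCAAT, on either strand, was present in 38 of 48 windows (79.2%), against 37.9% of all. Both were present in 34 windows (70.8%), against 7.70% of all. A CHR and a CCAAT match can share an end base, and a match is only a description. Upstream sequence up to the base before the RefSeq start site is printed for 6 genes, to set members with even levels across libraries beside members with uneven ones. CHR and CCAAT matches are in capitals, 5′ to 3′ on the gene's strand, and read TTCAAA and ATTGG where the match is on the opposite strand.
Cdk1 (chr10:69352913-69353032, minus strand): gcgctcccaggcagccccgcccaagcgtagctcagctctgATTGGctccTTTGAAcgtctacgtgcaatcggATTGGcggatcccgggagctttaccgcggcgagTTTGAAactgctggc
Cdc20 (chr4:118437344-118437463, minus strand): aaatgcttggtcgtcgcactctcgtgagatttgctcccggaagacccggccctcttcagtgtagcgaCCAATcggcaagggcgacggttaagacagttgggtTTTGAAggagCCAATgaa
Kif11 (chr19:37376262-37376381, plus strand): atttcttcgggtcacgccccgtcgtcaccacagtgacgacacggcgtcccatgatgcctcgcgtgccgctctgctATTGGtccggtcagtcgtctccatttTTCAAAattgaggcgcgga
Ncapg (chr5:45669725-45669924, plus strand): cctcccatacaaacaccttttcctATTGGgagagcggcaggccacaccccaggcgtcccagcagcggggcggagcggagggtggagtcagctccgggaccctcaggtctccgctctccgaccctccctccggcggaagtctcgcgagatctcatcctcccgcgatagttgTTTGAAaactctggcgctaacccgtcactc
Mki67 (chr7:135716380-135716579, minus strand): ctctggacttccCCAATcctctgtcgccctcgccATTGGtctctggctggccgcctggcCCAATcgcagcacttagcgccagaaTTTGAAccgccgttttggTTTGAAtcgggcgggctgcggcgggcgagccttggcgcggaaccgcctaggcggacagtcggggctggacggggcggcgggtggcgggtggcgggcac
Top2a (chr11:99024190-99024429, minus strand): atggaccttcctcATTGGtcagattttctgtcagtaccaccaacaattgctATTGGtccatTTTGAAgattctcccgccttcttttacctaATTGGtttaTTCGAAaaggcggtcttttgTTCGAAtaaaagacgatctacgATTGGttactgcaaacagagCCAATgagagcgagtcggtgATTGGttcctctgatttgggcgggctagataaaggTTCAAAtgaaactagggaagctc
In the window of Cdk1 the CHR matches begin 71 and 15 bases before the start site and the CCAAT matches 80 and 48 bases before it. In that of Kif11 the CHR match begins 19 bases and the CCAAT match 45 bases before the start site. Mki67 has CHR matches 116 and 98 bases before its start site, and Top2a has 4 CHR and 6 CCAAT matches. The start sites of these 6 genes in GENCODE M21 lie 0 to 26 bases from those of RefSeq.

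Depth was 37.4 to 49.2 M counts a library, where M is 1e+06, and the fewest reads that a member had in a library was 215. Levels are given as CPM, counts per 1e+06 reads after TMM scaling. Y-linked genes gave 0 reads in control 2 and in heterozygous library 1, and 3453 to 4291 reads in the other 4 libraries. Xist stood at 94.2 CPM in control 2 and 111 CPM in heterozygous library 1, and between 0 and 0.549 CPM in the other 4. Sex is not labelled, but by Y-linked reads and Xist these 2 libraries read as female and the other 4 as male. In control 2 and heterozygous library 1, genes with long coding sequences were lower relative to short ones, so sex and this length pattern cannot be told apart. Nkx2-1, which defines the lineage, was between 339 and 562 CPM in every library, and the 14 MGE markers were all detected. Magoh was between 63.7 and 118 CPM in controls and at 57.1 and 48.6 CPM in the heterozygous libraries. Whether the libraries came from separate embryos is not stated, so the p-values speak only of the spread among these samples, which may be technical.

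Most of the mitotic genes had a lower fitted level in heterozygous cells, and none passed the test. The log2 fold change, heterozygous over control, was below 0 for 54 of 57 genes, where 53.9% of all tested genes lay below 0. Its median was -0.32, against -0.03 over all tested genes. With edgeR's quasi-likelihood test and Benjamini-Hochberg adjustment over all genes 0 of 57 passed 0.05 (smallest adjusted p = 0.793), where 0.0% of all genes passed. At an unadjusted p under 0.05 there were 4 members, all lower, where 3.98% of all genes were lower and 1.75% higher at that level. These 4 were Ttk, Kif11, Anln and Top2a. Members were chosen with earlier results of these data known, so these counts describe the list and are no independent test. DESeq2 called 0 members (smallest adjusted p = 0.262) where it called 0.468% of all genes (0.424% lower), and limma-voom called 0. Blocked on the number in the sample code, edgeR called 0 members, where it called 0.0667% of all genes. Neuronal markers lay on the other side in the same comparison, with a median of 0.51 over 22 genes, and their part in these values was not tested.

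For 12 members (21.1%) both heterozygous libraries lay below all 4 controls, where 8.14% of all tested genes did so and 7.04% of those with at least 5 CPM in controls. For 0 members did both lie above all controls, where 6.17% of all genes did. The 12 were Aurka, Aurkb, Nek2, Cdc25c, Ttk, Bub1, Sgol1, Anln, Racgap1, Cdc20, Cdca3 and Ncapg. They stand in 6 of the 8 role groups used here, and none is a kinesin or a protein of the spindle group.

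**Figure D1:**
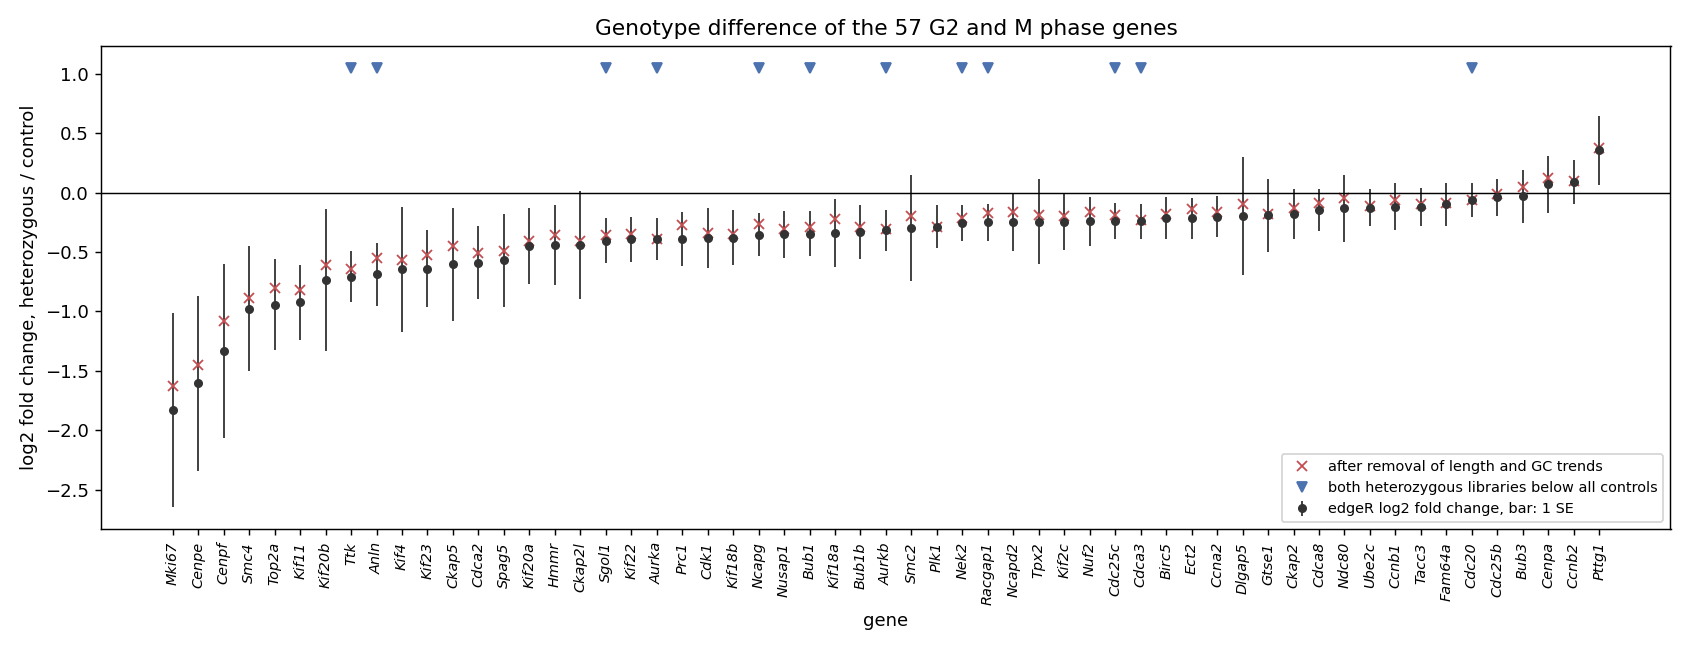
Log2 fold change (heterozygous over control, edgeR, bars 1 SE) of the 57 genes in order of size, with the value after removal of length and GC trends as a cross and a triangle over genes with both heterozygous libraries below all controls. Values run from -1.83 for Mki67 to 0.36 for Pttg1, and the 12 genes under a triangle are not those with the largest differences.

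The kinases that start mitosis and the chromosomal passenger complex, which corrects chromosome attachment, had log2 fold changes below 0 in 8 of 8 members (median -0.30). Aurka encodes the kinase of spindle poles (ENSMUSG00000027496, chromosome 2, 172356190 to 172370535, minus strand, GRCm38). It stood at 94.7, 99.4, 104 and 88.4 CPM in controls 1 to 4 and at 84.0 and 63.3 CPM in heterozygous libraries 1 and 2. The groups did not overlap, and heterozygous library 2 lay furthest from the controls. Its log2 fold change came to -0.39 (standard error 0.18; edgeR, adjusted p = 0.85), and was -0.60 without heterozygous library 1 and -0.21 without library 2.

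Aurkb, the kinase of the passenger complex, stood at 92.5, 104, 98.6 and 96.5 CPM in controls and at 89.1 and 68.2 CPM in heterozygous cells. Heterozygous library 1 lay closer to the lowest control than library 2 did. The log2 fold change of Aurkb was -0.32, with -0.51 without heterozygous library 1 and -0.14 without library 2. Nek2, a kinase that separates the centrosomes, stood at 52.0, 56.99, 52.2 and 53.8 CPM in controls and at 47.5 and 42.6 CPM in heterozygous cells. Its controls were close together, with a mean of 53.8 ± 2.29 CPM (SD, n = 4).

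Cdk1 itself, the main mitotic kinase, stood at 94.2, 141, 87.2 and 88.1 CPM in controls and at 91.5 and 66.2 CPM in heterozygous cells. Control 2 was far above the other controls, and heterozygous library 1 lay among them. Plk1, which acts from mitotic entry to cytokinesis, showed the opposite order of controls, with control 2 lowest at 172 CPM and the other 3 between 216 and 235 CPM. Its heterozygous libraries stood at 176 and 171 CPM, on either side of control 2. Birc5 (survivin), Cdca8 (borealin) and Cdca2, a phosphatase-targeting protein of anaphase chromosomes, had log2 fold changes of -0.22, -0.14 and -0.59, within overlapping groups.

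Cyclins and Cdc25 phosphatases, which activate Cdk1, lay close to 0, with 4 of 5 below it and a median of -0.12. Cdc25c was the most even of them in controls, at 27.4, 26.9, 28.5 and 28.1 CPM, and it stood at 23.1 and 23.8 CPM in heterozygous cells. Its groups did not overlap, and its log2 fold change was -0.24 (standard error 0.15; edgeR, adjusted p = 0.93). Ccnb1 (cyclin B1) stood at 164, 206, 141 and 157 CPM in controls and at 169.7 and 138 CPM in heterozygous cells. Ccnb2 (cyclin B2) was one of 3 members above 0 (log2 fold change 0.09, standard error 0.19). For both B cyclins and for Ccna2 (cyclin A2, log2 fold change -0.20) control 2 was the highest control. Cdc25b, the phosphatase of early mitotic entry, had a log2 fold change of -0.04.

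Spindle checkpoint and kinetochore genes were below 0 in 9 of 10 cases (median -0.34), with the widest range of any role group, from -1.60 to 0.07. Ttk, the kinase that starts the spindle checkpoint (ENSMUSG00000038379, chromosome 9, 83834689 to 83872389, plus strand, GRCm38), had the smallest p of all members. It stood at 43.9, 27.9, 38.4 and 37.8 CPM in controls and at 21.3 and 24.0 CPM in heterozygous cells. Control 2 was the lowest control and still above both heterozygous libraries. Its log2 fold change came to -0.71 (standard error 0.22; edgeR, unadjusted p = 0.0114, adjusted p = 0.793).

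Bub1, a checkpoint kinase of the kinetochore, stood at 69.0, 67.9, 81.4 and 73.3 CPM in controls and at 66.9 and 47.9 CPM in heterozygous cells. Sgol1 (shugoshin, now Sgo1), which protects centromeric cohesin, stood at 30.2, 29.7, 34.9 and 29.7 CPM in controls and at 27.2 and 19.96 CPM in heterozygous cells. For both genes heterozygous library 1 was close to the lowest control and heterozygous library 2 well below it. The log2 fold change of Bub1 was -0.34, with -0.59 without heterozygous library 1 and -0.13 without library 2. That of Sgol1 was -0.40, with -0.63 and -0.20 in the same order.

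Cenpe, a kinesin motor of the kinetochore, varied far more among the controls. It stood at 114, 21.4, 163 and 90.5 CPM in controls 1 to 4 and at 17.9 and 46.1 CPM in heterozygous cells. Control 2 lay between the heterozygous libraries. Cenpf, a large protein of the outer kinetochore, stood at 187, 28.9, 265 and 165 CPM in controls and at 45.8 and 82.3 CPM in heterozygous cells, with control 2 below both. Their log2 fold changes of -1.60 (standard error 0.74) and -1.34 (standard error 0.73) were among the 3 lowest of all members, with wide errors. With Y-linked expression as a covariate they were -0.90 and -0.44. Cenpe moved to -1.06 without heterozygous library 1 and to -2.45 without library 2. Cenpa, the histone that marks centromeres, was above 0 (log2 fold change 0.07, standard error 0.24). Bub1b, Bub3, Ndc80 and Nuf2 lay between -0.33 and -0.03.

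Kinesin motors were below 0 in 9 of 9 cases, from -0.92 to -0.24 (median -0.45), and for 0 of them did the groups separate. Kif11 (Eg5), the motor that pushes spindle poles apart (ENSMUSG00000012443, chromosome 19, 37376403 to 37421859, plus strand, GRCm38), had the smallest p among them. It stood at 147, 75.7, 169 and 144 CPM in controls and at 62.5 and 78.5 CPM in heterozygous cells. Heterozygous library 1 was below all controls, while library 2 was just above control 2. Its log2 fold change was -0.92 (standard error 0.32; edgeR, unadjusted p = 0.0199, adjusted p = 0.832). Kif4, a chromosome-bound motor encoded on the X chromosome, stood at 58.0, 15.7, 70.9 and 58.9 CPM in controls and at 25.7 and 39.4 CPM in heterozygous cells. There control 2 was the lowest library of all. Kif23, the motor of centralspindlin, had a log2 fold change of -0.64 and Kif20b, a motor of late cytokinesis, one of -0.74, with standard errors of 0.32 and 0.60. Kif2c, Kif18a, Kif18b, Kif20a and Kif22 lay between -0.45 and -0.24.

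Spindle and microtubule-binding proteins were below 0 in 11 of 11 cases (median -0.35), again with no separation of the groups. Nusap1, which bundles spindle microtubules, had the smallest p among them. It stood at 115, 84.7, 114 and 114 CPM in controls and at 94.3 and 73.2 CPM in heterozygous cells, a log2 fold change of -0.35 (standard error 0.20). It was -0.54 without heterozygous library 1, -0.19 without library 2 and -0.65 when blocked on the number in the sample code. For every gene the blocked value rests on control 1 and heterozygous library 2, whose shared number is the only one with both genotypes. Control 2 lay below heterozygous library 1. For all 11 genes heterozygous library 1 was above control 2, by a median of 0.35 log2 units. The spindle assembly factor Tpx2 and the microtubule polymerase Ckap5 had log2 fold changes of -0.25 and -0.60. Prc1, which crosslinks the central spindle, was at -0.39 and Spag5 (astrin), which holds the spindle poles together, at -0.57. Tacc3, Ckap2, Ckap2l, Dlgap5, Hmmr and Gtse1 lay between -0.44 and -0.12.

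Among the 3 cytokinesis genes, Anln (anillin), the scaffold of the contractile ring (ENSMUSG00000036777, chromosome 9, 22332012 to 22389188, minus strand, GRCm38), had a log2 fold change of -0.69 (standard error 0.27; edgeR, adjusted p = 0.85). It stood at 58.9, 36.4, 68.9 and 64.8 CPM in controls and at 35.2 and 35.9 CPM in heterozygous cells. Control 2 was nearly level with the heterozygous libraries, so the separation rests on a narrow gap. Racgap1, a subunit of centralspindlin, stood at 240.3, 209, 233 and 217 CPM in controls and at 195 and 183 CPM in heterozygous cells. Its log2 fold change was -0.25, and -0.39 when blocked on the number in the sample code. Ect2, which activates RhoA at the cell equator, had a log2 fold change of -0.21 within overlapping groups.

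Genes of the exit from mitosis had the median closest to 0, at -0.10, with 4 of 5 below 0. Cdc20, the activator of the anaphase-promoting complex, was the most even of all members (ENSMUSG00000006398, chromosome 4, 118432901 to 118437352, minus strand, GRCm38). It stood at 148, 145.5, 145.4 and 153 CPM in controls and at 144 and 139 CPM in heterozygous cells. The groups did not overlap, yet the log2 fold change was only -0.06 (standard error 0.14), and -0.04 without heterozygous library 2. Cdca3, a trigger of mitotic entry, stood at 115, 110.3, 120.5 and 119 CPM in controls and at 103 and 93.7 CPM in heterozygous cells (log2 fold change -0.24, standard error 0.15). Ube2c, the ubiquitin-conjugating enzyme of the complex, and Fam64a (now Pimreg) had log2 fold changes of -0.12 and -0.10. Pttg1 (securin), the inhibitor of separase, had the highest value of all members, 0.36 (standard error 0.29), from levels of only 7.08 to 14.6 CPM.

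Chromosome structure genes had the lowest median of the role groups, -0.65, with 6 of 6 below 0. Top2a, the topoisomerase that untangles sister chromatids (ENSMUSG00000020914, chromosome 11, 98992943 to 99024189, minus strand, GRCm38), stood at 718, 281, 774 and 651 CPM in controls and at 300.4 and 329.9 CPM in heterozygous cells. Control 2 was the lowest of the 6 libraries. Its log2 fold change came to -0.94 (standard error 0.38; edgeR, unadjusted p = 0.0393, adjusted p = 0.85). A fit with Y-linked expression as covariate gave -0.59.

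Mki67, the proliferation marker Ki-67 that coats mitotic chromosomes (ENSMUSG00000031004, chromosome 7, 135689784 to 135716361, minus strand, GRCm38), stood at 567, 69.0, 807 and 481 CPM in controls. In the heterozygous libraries it stood at 94.3 and 176 CPM. The highest control was 11.7 times the lowest, the widest spread of all members. Its log2 fold change of -1.83 had a standard error of 0.82 (edgeR, adjusted p = 0.85), and control 2 was again below both heterozygous libraries. Ncapg, a condensin subunit, stood at 67.0, 55.0, 68.4 and 59.6 CPM in controls and at 54.8 and 43.1 CPM in heterozygous cells. Heterozygous library 1 was only just below control 2. The log2 fold change of Ncapg was -0.35, with -0.20 without heterozygous library 2 and -0.64 when blocked on the number in the sample code. The other condensin genes Ncapd2, Smc2 and Smc4 lay at -0.25, -0.30 and -0.97.

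**Figure D2:**
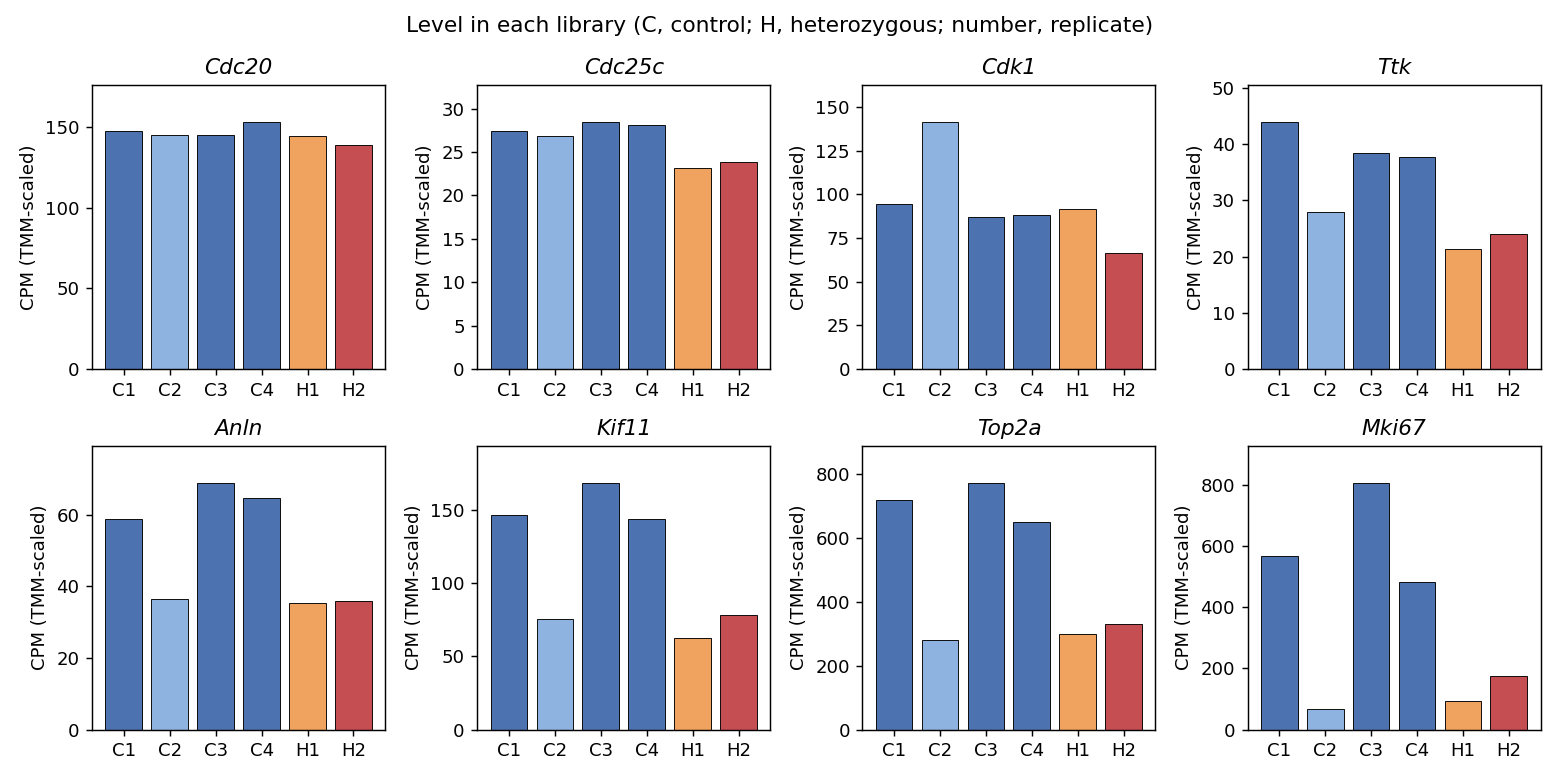
TMM-scaled CPM of 8 members in each library, with axes from 0, for controls (C1 to C4, blue) and heterozygous libraries (H1 and H2, orange and red); the lighter blue and the orange bars are the libraries without Y-linked reads. Cdc20 is even at 139 to 153 CPM, while Mki67 runs from 69.0 to 807 CPM and is lowest in control 2.

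Control 2 stood apart from the other controls for most members. It was the lowest control for 39 of 57 members (68.4%), where this held for 37.4% of all tested genes, and the highest for 13 (22.8%), where 36.9% of all genes had it highest. Control 3 was the highest control for 35 members (61.4%, against 24.9% of all genes). The highest control exceeded the lowest by more than 2-fold in 20 of 57 members (35.1%), against 18.4% of tested genes with at least 5 CPM in controls.

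**Figure D3:**
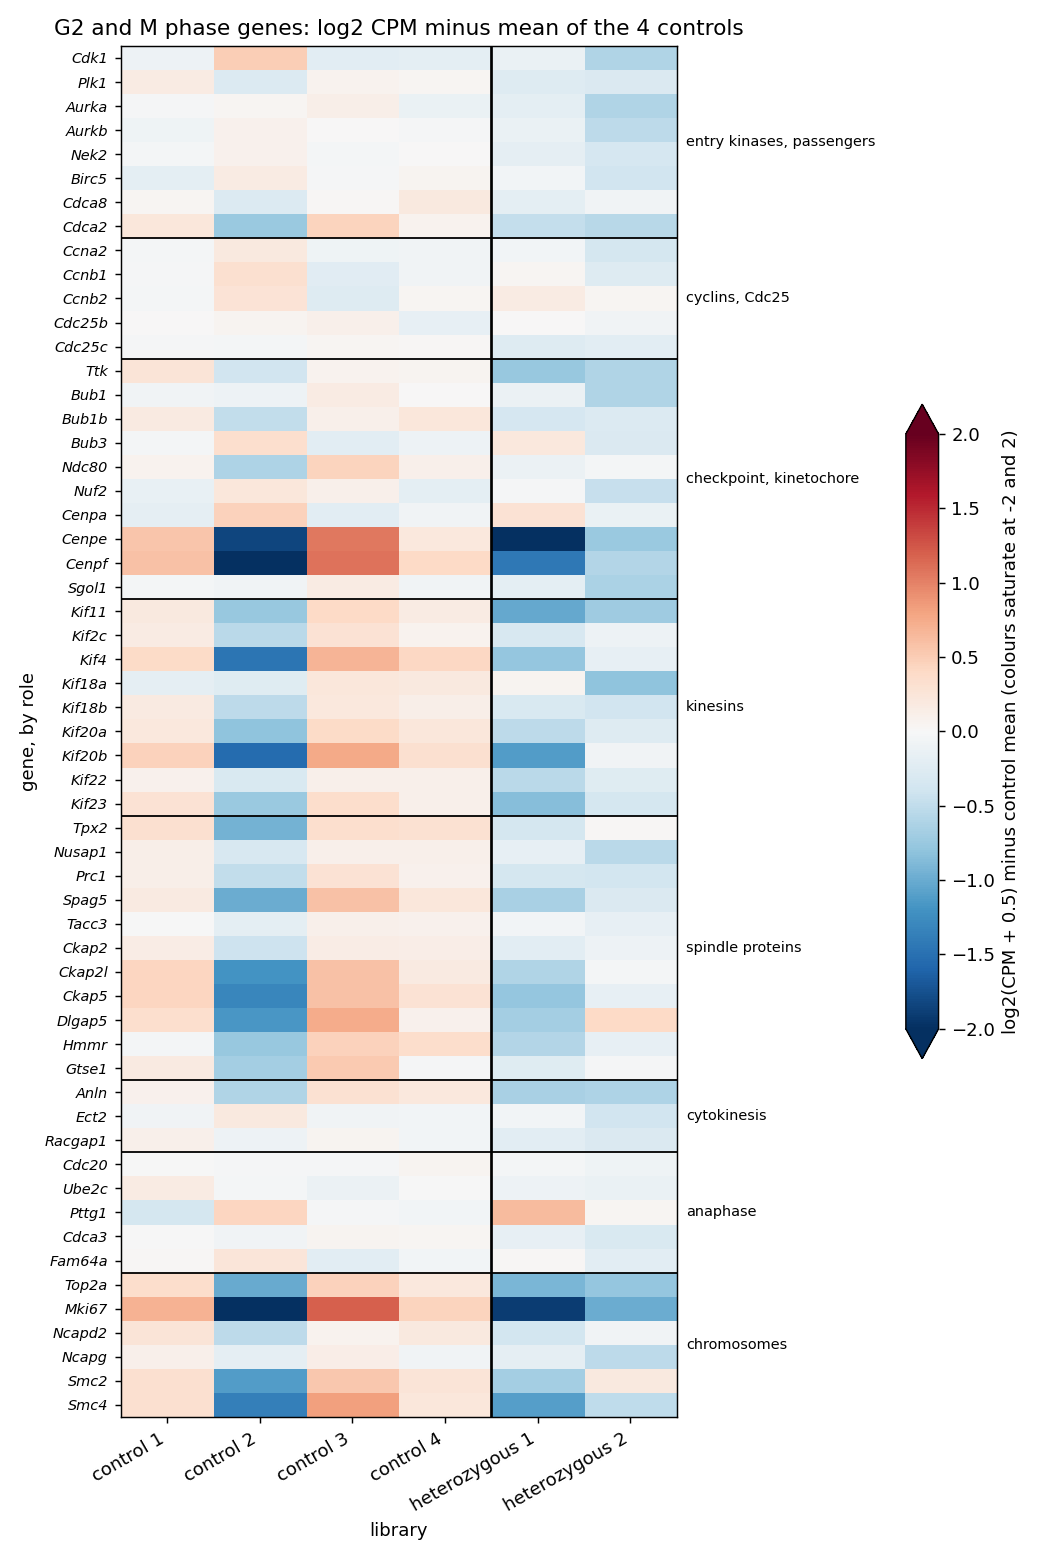
Colours show log2(CPM + 0.5) minus the mean of the 4 controls for the 57 genes (rows, by role) in the 6 libraries (columns), with colours saturating at -2 and 2. Control 2 and heterozygous library 1 share low values for Cenpe, Cenpf, Kif20b, Ckap5, Mki67 and Smc4, while heterozygous library 2 is paler and more even.

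Members for which control 2 was low or high differed in the length of their coding sequence (longest in GENCODE M21). The 39 with control 2 lowest had a median coding length of 2658 nt, and the 13 with it highest one of 1035 nt. Among the latter were Cdk1, Ccna2, Ccnb1, Ccnb2, Birc5, Cenpa and Pttg1. Over the 57 members, whose coding length ran from 402 to 9531 nt, the difference between control 2 and controls 1, 3 and 4 had a Spearman correlation of -0.83 with coding length. For heterozygous library 1 against the same controls it was -0.82. Over 14062 tested coding genes these correlations were -0.60 and -0.48. Genes of a library share its RNA and its depth, so these are descriptions of single libraries.

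The size of the difference also followed length. In 19 members under 1500 nt control 2 stood a median of 0.23 log2 units above controls 1, 3 and 4, as did all coding genes of that length (0.23). In 22 members of 1500 to under 3000 nt it was at -0.67, against -0.24 for all coding genes, and in 16 members of 3000 nt or more at -1.41, against -0.76. Heterozygous library 1 showed 0.00, -0.49 and -1.23 in the same 3 classes of members, against 0.15, -0.15 and -0.53 over all coding genes. By these medians, medium and long members lay further down in these 2 libraries than coding genes of like length. The part of transcript length and of sex in these values was not tested.

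**Figure D4:**
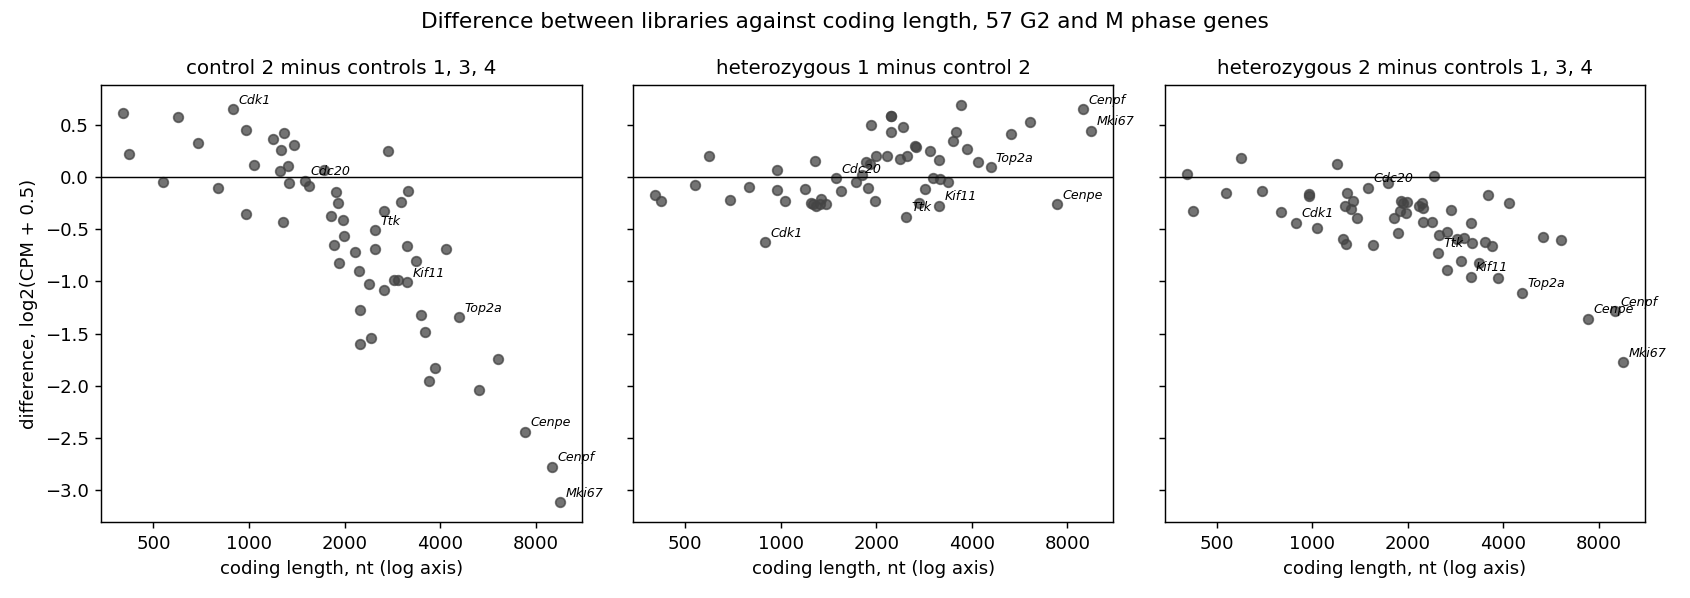
Difference in log2(CPM + 0.5) against coding length (log axis) for the 57 members, for control 2 and heterozygous library 2 each minus the mean of controls 1, 3 and 4, and for heterozygous library 1 minus control 2. Control 2 runs from above 0 for short genes such as Cdk1 down to Mki67, while heterozygous library 1 minus control 2 stays between -0.625 and 0.696.

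Within the 2 libraries without Y-linked reads, mitotic genes did not lie to one side. Heterozygous library 1 was below control 2 for 28 of 57 members, where 50.4% of all genes were, with a median of 0.03 log2 units. The members split by length there too, with 16 of 19 members under 1500 nt below 0 (median -0.21). Of 16 members of 3000 nt or more, 5 were below 0 (median 0.22). All coding genes of these lengths had medians of -0.10 and 0.25. This contrast has 1 library on each side and no replicate check.

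Among the other 4 libraries, heterozygous library 2 was below the mean of controls 1, 3 and 4 for 53 of 57 members, where 53.1% of all genes were, with a median of -0.39 log2 units. The exceptions were Ccnb2 (0.13), Cenpa (0.03), Dlgap5 (0.01) and Pttg1 (0.18). The median was -0.23 in members under 1500 nt, -0.37 in those of 1500 to under 3000 nt and -0.64 in longer ones, against 0.03, -0.06 and -0.21 over all coding genes. For 51 of 57 members this library lay below each of the 3 controls, where 35.2% of all genes did. It was the lowest of all 6 libraries for 21 members (36.8%, against 19.2% of all genes).

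For Ttk, Aurka, Aurkb and Nek2 both heterozygous libraries lay below all controls, so both contrasts had to be below 0. Both were also below 0 for Kif11 and Cdk1, among other members. These genes are examples named after their values were seen, and the share of genes with both below 0 was not counted. The differences were -0.38 and -0.73 for Ttk, -0.27 and -0.96 for Kif11, and -0.62 and -0.44 for Cdk1, each time first for heterozygous library 1 against control 2 and then for library 2 against the other controls. For Mki67 they were 0.45 and -1.77, and for Top2a 0.10 and -1.11. Ki-67 and topoisomerase therefore gave opposite signs in the 2 contrasts, as did Cenpf at 0.65 and -1.29.

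With trends on exon length and GC content taken out of each library, the log2 fold change was below 0 for 53 of 57 members, where 46.1% of all genes were. The median was -0.26, against 0.03 over all genes. With edgeR 0 members passed (smallest adjusted p = 0.625) where 0.0% of all genes did, and 7 were lower at an unadjusted p under 0.05, where 4.11% of all genes were. The value of Ttk was then -0.64 (standard error 0.22), that of Anln -0.55 with 0.19, and that of Mki67 -1.63 with 0.68. Among members, the correlation of this value with coding length was still -0.67, against -0.73 before.

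Other genes of mitosis were read from lists drawn up alongside the members. Of 33 further kinetochore, centromere and checkpoint genes 29 were below 0 (median -0.16), and 0 separated the groups. Over all tested genes both heterozygous libraries lay below all controls for 8.14%. Of 16 further condensin and cohesin genes 15 were below 0 (median -0.26), and 2 (12.5%) had both heterozygous libraries below all controls. In that list Espl1 (separase) averaged 106.5 ± 18.9 CPM over controls (SD, n = 4), against 75.04 ± 6.71 CPM over heterozygous libraries (SD, n = 2). Its level in control 2 was 78.3 CPM, below heterozygous library 1 at 79.8 CPM. The condensin subunit Ncaph averaged 88.2 ± 15.5 and 64.7 ± 1.76 CPM. Of 17 further kinases, phosphatases and cyclins of the G2 to M transition 13 were below 0 (median -0.22). For 4 of the 17 (23.5%) both heterozygous libraries lay below all controls. Wee1, the kinase that restrains Cdk1, averaged 59.0 ± 4.90 CPM over controls (SD, n = 4), against 44.9 ± 8.54 CPM over heterozygous libraries (SD, n = 2). Mastl (Greatwall), which holds down a phosphatase in mitosis, stood at 22.3 ± 2.89 and 16.5 ± 1.30 CPM.

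Of 28 further spindle, augmin and cytokinesis genes 20 were below 0 (median -0.20), and 4 (14.3%) had both heterozygous libraries below all controls. Kif14, a kinesin of the midbody, had a log2 fold change of -1.04 (standard error 0.38; edgeR, adjusted p = 0.841), and the augmin subunit Haus3 one of -0.70 with 0.28. For Kif14 control 2 stood at 14.2 CPM, between the heterozygous libraries at 10.9 and 16.1 CPM. Subunits and regulators of the anaphase-promoting complex lay on the other side by fitted fold change, with 12 of 18 above 0 and a median of 0.09. Their mean log2 level, set against the controls, was 0.12 and -0.03 in heterozygous libraries 1 and 2. That lay within the range of the controls, -0.10 to 0.19. Heterozygous library 1 was below control 2 for 13 of the 18, where 50.4% of all genes were. Both heterozygous libraries lay above all controls for 2 of the 18, where 6.17% of all genes did so, and below them for 1, where 8.14% did. Mad2l1bp, with the smallest p of that list, stood at 12.7 ± 1.9 CPM over controls and 17.4 ± 2.2 CPM over heterozygous libraries (log2 fold change 0.45). Most of that list is expressed through the cell cycle. Its member Fbxo5 (Emi1), an inhibitor of the complex made in S and G2, stood at 43.1 ± 2.50 and 33.5 ± 5.27 CPM. With edgeR 0 genes of these lists passed over all genes, and DESeq2 called 0. At an unadjusted p under 0.05 edgeR placed 1 of 16 condensin or cohesin genes and 2 of 28 further spindle genes lower. No other gene of these lists was lower or higher at that level, where 3.98% of all genes were lower and 1.75% higher.

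Regulators of the program had a median of -0.08, with 13 of 21 below 0 and a range from -0.64 to 0.23. The lowest was E2f8 at -0.64 (standard error 0.30; edgeR, adjusted p = 0.85), and E2f7 stood at -0.43 (standard error 0.25). Both encode E2F family repressors. For E2f8 control 2 stood at 30.3 CPM, below heterozygous library 2 at 35.1 CPM. For E2f7 control 2 stood at 46.0 CPM, below heterozygous library 1 at 55.7 CPM. Foxm1, the activator of G2 and M genes, stood at 174, 93.2, 194 and 142.5 CPM in controls and at 116.5 and 132 CPM in heterozygous cells, within the control range. Mybl2 (B-Myb) stood at 73.0, 49.1, 88.0 and 63.5 CPM in controls and at 48.8 and 64.9 CPM in heterozygous cells, and control 2 was again the lowest control for both. E2f4 and Lin54, subunits of the repressor form of the MuvB complex, had log2 fold changes of -0.20 (standard error 0.17) and -0.05 (standard error 0.17). Rbl1 (p107), a pocket protein of that complex, stood at 67.1 ± 6.23 and 51.4 ± 13.1 CPM.

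The p53 target Cdkn1a encodes p21, which inhibits cyclin-dependent kinases. It averaged 6.05 ± 3.07 CPM over controls (SD, n = 4), against 22.6 ± 8.06 CPM over heterozygous libraries (SD, n = 2), and both heterozygous libraries were above all controls. DESeq2 called it (adjusted p = 0.0128) and edgeR did not (adjusted p = 0.793). Ccng1 (cyclin G1), another p53 target, averaged 42.6 ± 8.20 CPM over controls (SD, n = 4), against 87.6 ± 11.7 CPM over heterozygous libraries (SD, n = 2), with the same pattern of calls (DESeq2, adjusted p = 0.0117). Trp53 itself stood between 151 and 169 CPM in controls and at 88.2 and 182 CPM in heterozygous libraries 1 and 2, outside the control range on either side. Members with a CHR match in the promoter had a median log2 fold change of -0.37 (38 genes) and those without one -0.23 (10 genes), with overlapping ranges of -1.83 to 0.09 and -1.60 to 0.36. Cdk1, Cdc20, Kif11, Mki67 and Top2a, whose promoters are printed above, all carry the match and spanned -1.83 to -0.06.

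S phase genes were below 0 in 44 of 49 cases, with a median of -0.14, and 0 of them were called by edgeR or DESeq2. With edgeR 1 was lower at an unadjusted p under 0.05, where 3.98% of all genes were. For 6 of the 49 (12.2%) both heterozygous libraries lay below all controls, where 8.14% of all genes did so. The mean log2 level of the S phase genes, set against the controls, was -0.06 and -0.24 in heterozygous libraries 1 and 2. It was between -0.08 and 0.05 in controls. Mcm6, a subunit of the replicative helicase, averaged 355.5 ± 19.5 CPM over controls (SD, n = 4), against 279.8 ± 7.17 CPM over heterozygous libraries (SD, n = 2). The same mean over the 57 members was 0.12, -0.46, 0.24 and 0.09 in controls 1 to 4 and -0.39 and -0.31 in the heterozygous libraries. Control 2 was thus below both heterozygous libraries. Over the 19 short members it was 0.14 in control 2, -0.02 in heterozygous library 1 and -0.29 in library 2, and between -0.06 and -0.02 in controls 1, 3 and 4. Over the 16 long members it was -1.11 in control 2 and -0.88 and -0.43 in the heterozygous libraries.

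**Figure D5:**
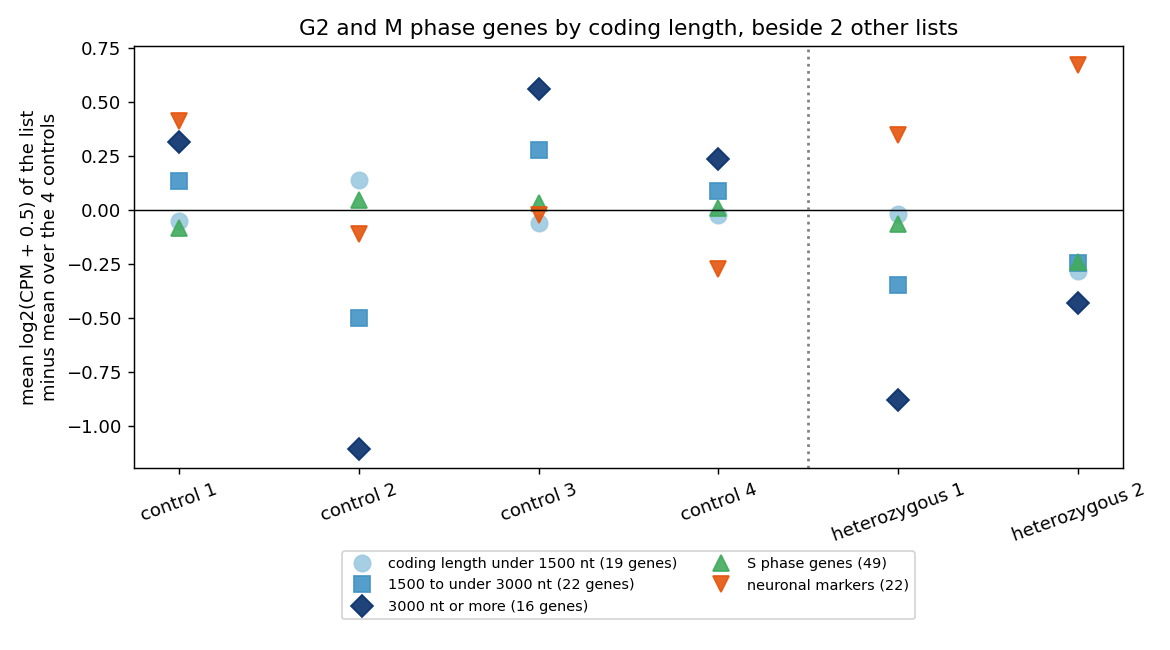
Mean log2(CPM + 0.5) of each list minus its mean over the 4 controls, for each library, with the 57 members split by coding length beside S phase genes and neuronal markers. Long members spread from -1.11 in control 2 to 0.56 in control 3, and short members lie between -0.06 and 0.14 except in heterozygous library 2, at -0.29.

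Markers of neurons, which have left the cell cycle, had higher values in heterozygous cells, with 0 of 22 called by edgeR or DESeq2. With edgeR 6 were higher at an unadjusted p under 0.05, where 1.75% of all genes were. Of 22 neuronal markers 21 had a log2 fold change above 0 (median 0.51), and their summed level was 2833 to 4347 CPM in controls and 4765 and 5671 CPM in heterozygous cells. None was at 0 in both heterozygous libraries. On the log2 scale the mean of the neuronal markers was 0.41 in control 1, above heterozygous library 1 at 0.35, so the groups overlapped. Of 13 progenitor markers 8 were below 0 (median -0.11), with a summed level of 4230 to 5846 CPM in controls and 4171 and 4931 CPM in heterozygous cells. Erythroid markers summed to 29.4 to 133 CPM in controls and to 361 and 0.61 CPM in the heterozygous libraries, and microglial and macrophage markers to 1.92 to 77.9 CPM in controls and to 10.2 and 0 CPM. MGE markers summed to 1104 to 2043 CPM in controls and to 1631 and 2833 CPM in heterozygous cells. Endothelial markers summed to 5.15 to 25.3 CPM in controls and to 9.50 and 7.91 CPM, with Cldn5 at 0 in both heterozygous libraries. Mesenchyme and pericyte markers summed to 122 to 211 CPM in controls and to 206 and 84.3 CPM, and those of surface ectoderm to 6.59 to 10.2 CPM and to 11.7 and 3.46 CPM, with Grhl2 at 0 in both heterozygous libraries. The part of any of these cell types in the values of the mitotic genes was not tested.

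The count of 12 separated genes depended on single libraries. Without control 2 both heterozygous libraries lay below all remaining controls for 41 of 57 members, where 19.4% of all genes did, and without heterozygous library 1 it was 24 members, where 23.4% did. Over the 6 fits that left out 1 library each, the median log2 fold change ran from -0.38 to -0.26 and 50 to 54 members were below 0. Over 17 alternative fits Ttk had values from -0.88 to -0.59, Kif11 from -1.11 to -0.67 and Mki67 from -2.36 to -0.79 (log2 fold change).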

How the data were processed

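RNA-seq was deposited for 6 libraries of sorted cells, 4 control and 2 heterozygous. The authors deposited raw counts per gene, used here as deposited. Trim Galore, STAR, HTSeq and build mm10 stand in the submitters' processing notes, without versions. The authors' normalized values were not used. Groups came from the labels' genotype. Genes were filtered with filterByExpr, scaled by TMM and tested with edgeR 4.0.16 (quasi-likelihood, robust) in R 4.3.3, with Benjamini-Hochberg adjustment over 16495 genes. DESeq2 1.42.0 and limma-voom (limma 3.58.1) were alternatives, beside other scalings and filters, a Y-linked covariate, removal of length and GC trends (known for 98.6% of tested genes), and leaving out each library. Log2 levels used log2(CPM + 0.5). Coding lengths and coordinates came from GENCODE M21 (GRCm38), which matched 36723 of 38561 genes. Members and lists were chosen with earlier results of these data known. Named genes were those with both heterozygous libraries below all controls, the smallest p of each role and up to 3 per further list. Mki67, Cenpf, Cenpe, Cdk1 and other members with values were named after their values were seen. On data simulated for 4 against 2 libraries (15884 genes), edgeR recovered 18% of 2-fold and 91% of 4-fold changes, and DESeq2 45% and 95%. The simulation drew each gene independently, without the length pattern of control 2 and heterozygous library 1, so its rates need not hold for these libraries. An exact permutation test of 4 against 2 cannot go below a two-sided p of 0.0667.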

Additional observations from a re-analysis of the deposited data

Results flagged for a closer look

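In 9 of 57 members 1 control library stood apart from the other 3 by Dixon's criterion (a large gap to its neighbour relative to the range of the 4 controls). For independent normal values the criterion is met in about 1 in 20 groups. These genes share their libraries, and the share over all tested genes was not computed, so 9 of 57 cannot be set against that rate. Control 2 was the lowest control for 37.4% of all tested genes and the highest for 36.9%. Control 2 was the high library for Ccna2 at 304.5 CPM, Cdk1 at 141.4 CPM and Ect2 at 144.9 CPM. It was the low library for Ckap2 at 28.7 CPM, Kif18b at 41.4 CPM, Kif22 at 85.0 CPM, Nusap1 at 84.7 CPM and Tpx2 at 100.1 CPM. Control 3 was the high library for Sgol1 at 34.9 CPM.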

How the results depend on the processing

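No paired analysis was possible because the replicate numbers are accession order, which pairs no samples. A fit blocked on the number in the sample code was run, and only number 70 holds both genotypes (control 1 and heterozygous library 2), so its difference rests on those 2 libraries; the median of the members was -0.39 there. Over 17 alternative fits 0 members were called. Over all genes edgeR called 0, DESeq2 74 and the blocked fit 11. With Y-linked expression as a covariate 49 members were below 0, where 53.7% of all genes were, and the median was -0.225, the closest to 0 of the 17 fits. Within the libraries without Y-linked reads 28 members were below 0 and the median was 0.025, the only alternative with a median above 0. Without the libraries lacking Y-linked reads (1 library against 3) the heterozygous library lay below all controls for 51 members, where 35.2% of all genes did. Within the 2 libraries without Y-linked reads (1 against 1) it did so for 28 members, where 50.4% of all genes did. Leaving out 1 library at a time gave 13 to 41 such members, where 9.72% to 23.4% of all genes did so. It left 50 to 54 members below 0 and medians of -0.38 to -0.26. Over the 13 alternatives that change the levels or libraries the number of such members ran from 9 to 51. The 9 came with RLE scaling, where 7.49% of all genes did so. With length and GC trends taken out there were 10, where 7.68% of all genes did so. The share of all genes thus changed with the libraries compared. In the simulation of 4 against 2 libraries, which held no length pattern, edgeR recovered 18% of 2-fold changes with 8 false calls, and DESeq2 45% with 59 false calls.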
